A study of Mus musculus with 9 samples.

Results

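The 33 genes described here are genes of blood and immune cells, taken by name from a fixed list: 4 for the leukocyte surface, adhesion and cytoskeleton, 9 of macrophages and monocytes, 5 for lymphocyte receptors and their adaptors, 7 for transcription factors and 8 for kinases, a phosphatase, a lipase and exchange factors. Their readout was extrachromosomal circular DNA (eccDNA), pieces of genomic DNA that exist outside the chromosomes as closed circles. The deposited table pairs each circle with the protein-coding gene it overlaps. It held 336 pairs of a circle and one of these genes, out of 68857 pairs and 149584 circles in all, and the 336 pairs were 336 different circles. A circle was found in 28 of the 33 genes, and Cd68, Lyz2, Cd79a, C1qa and Runx3 had none.

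The circles came from hearts of wild-type C57BL/6J mice at 3 stages, embryonic day 18 (E18), postnatal day 3 (3d) and 8 weeks (8w), with 3 libraries each. The labels call the 3 libraries of a stage biological replicates and do not say whether each was 1 animal or a pool. The tissue is given as heart with cardiocytes as cell type, which circular DNA cannot check, since every nucleated cell carries these genes whether or not it uses them. Circles were enriched by digestion, alkaline treatment and column purification, amplified with phi29 polymerase and sequenced. Each circle was recognised by split reads, which are single reads that cross the point where the 2 ends of the piece are joined.

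Blood cells arise from stem cells under transcription factors such as Runx1, Spi1 and Ikzf1, and lymphocytes go on under Ebf1 in the B lineage and Bcl11b in the T lineage. The heart holds resident macrophages from fetal life on, and Cx3cr1, Mrc1, Mertk and F13a1 are among the genes by which such cells are known. Small circles like those counted here are made in normal tissue from all over the genome, and most are far shorter than a gene. A circle from one of these genes therefore does not show which cell it came from or whether the gene was active.

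Of the 40 promoter windows that RefSeq gives for 28 of these genes, 2 shared bases with a circle of up to 100 kb. Each window runs from 250 bases before to 50 bases after an annotated start on GRCm38.p6, and over all genes 3.15% of 32851 windows shared bases with such a circle. The window of Syk, which encodes a tyrosine kinase downstream of immune receptors, is chr13:52583187-52583486 on the plus strand. A circle of 494 bp at chr13:52583287-52583780 took in its last 200 bases, the start included, with 18 split reads in E18 replicate 1. The window of Runx1, whose product is a transcription factor of blood stem cells, is chr16:92826025-92826324 on the minus strand. A circle of 393 bp at chr16:92826285-92826677, with 2 split reads in 3d replicate 3, took in its first 40 bases and ended upstream of the start. That second circle lies in no gene of the deposited table and so is not among the 336. The windows are shown because they are the places found where a circle carries sequence next to a start of these genes. They are written 5′ to 3′ on the gene's strand with the bases on the circle in capitals.
Syk: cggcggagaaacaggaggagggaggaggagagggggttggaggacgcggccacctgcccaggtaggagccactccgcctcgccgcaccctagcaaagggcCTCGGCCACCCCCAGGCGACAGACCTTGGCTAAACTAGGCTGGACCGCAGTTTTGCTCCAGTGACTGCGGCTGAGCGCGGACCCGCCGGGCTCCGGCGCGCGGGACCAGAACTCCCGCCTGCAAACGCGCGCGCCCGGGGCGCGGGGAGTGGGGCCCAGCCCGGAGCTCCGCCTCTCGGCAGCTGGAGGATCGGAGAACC
Runx1: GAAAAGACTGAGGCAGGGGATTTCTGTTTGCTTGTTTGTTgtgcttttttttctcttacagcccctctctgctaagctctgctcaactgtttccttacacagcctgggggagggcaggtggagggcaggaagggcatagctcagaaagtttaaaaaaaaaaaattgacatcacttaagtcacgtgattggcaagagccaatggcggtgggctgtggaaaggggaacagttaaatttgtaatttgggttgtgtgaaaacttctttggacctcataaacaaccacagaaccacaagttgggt

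The Syk window was 72% G and C and the Runx1 window 45%. Both strands of each window were searched for 3 motifs. The core of the PU.1 site (GAGGAA), the factor that Spi1 encodes, occurs in 28.3% of all windows and was in neither. The RUNX site (TGTGGT) occurs in 16.8% of all windows, and the Runx1 window held it at positions 279 and 287, read on the opposite strand and counted from the window's 5′ end. Both matches lie in the part that is not on the circle. The GC box (GGGCGG) occurs in 35.7% of all windows and was in neither. The 2 matches do not overlap each other.

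Libraries differed widely in depth, with 3931 circles and 11377 split reads in 8w replicate 1 as the smallest and 42963 circles in 3d replicate 3 as the largest by circles, while E18 replicate 1 held the most split reads (846374). Levels are therefore given per 10000 circles of the library. A single split read was enough for a circle to count as found in a library. In 8w replicate 1, 80% of the circles of these genes rested on a single read, and in 3d replicate 1 36.7% did, against 5.33% to 26.3% in the other 7 libraries.

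These genes gave about the same share of circles at each stage when a single read was enough. In the E18 libraries 75, 19 and 26 circles were found, in the 3d libraries 60, 70 and 102, and in the 8w libraries 10, 34 and 13. Per 10000 circles that was 21.3, 21.02 and 24.8 at E18, 18.6, 26.3 and 23.7 at 3d, and 25.4, 23.1 and 19.6 at 8w. The ranges of the 3 stages overlap, and the numbers of circles followed the size of the library.

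The stage means were 22.4 ± 2.11 at E18, 22.9 ± 3.89 at 3d and 22.7 ± 2.96 at 8w (SD, n = 3 each). With 2 or more reads required they were 21.5 ± 2.89 at E18, 23.2 ± 3.99 at 3d and 18.3 ± 4.98 at 8w. The Wilson 95% interval of a single library was narrowest in 3d replicate 3, at 19.6 to 28.8, and widest in 8w replicate 1, at 13.8 to 46.8. Such intervals cover the counting error of circles only and not the spread between libraries. Reads of amplified DNA are no independent molecules. Counted in split reads, the genes took 21.6 ± 6.58 of every 10000 at E18, 21.003 ± 2.40 at 3d and 18.7 ± 5.24 at 8w. No test was made over the list, because its members were chosen with earlier results of these data known.

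**Figure D1:**
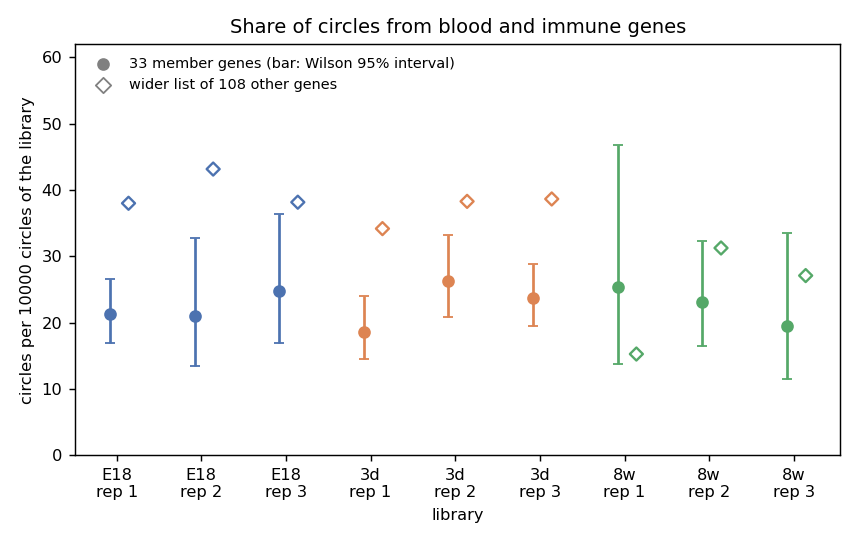
Circles per 10000 circles of each library (y axis) for the 33 genes (filled points, with Wilson 95% intervals as bars) and for 108 other blood and immune genes (open diamonds), by library (x axis). The 33 genes sat between 18.6 and 26.3 in all 9 libraries, while the other genes sat between 34.2 and 43.1 at E18 and 3d and between 15.3 and 31.2 at 8w.

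The number of these genes with a circle followed depth too. It averaged 18 ± 6.08 genes per library at E18, 23.7 ± 2.08 at 3d and 11.7 ± 4.62 at 8w (SD, n = 3 each). Over the 3 libraries of a stage together, 27 of the 33 genes had a circle at E18, 28 at 3d and 23 at 8w.

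**Figure D2:**
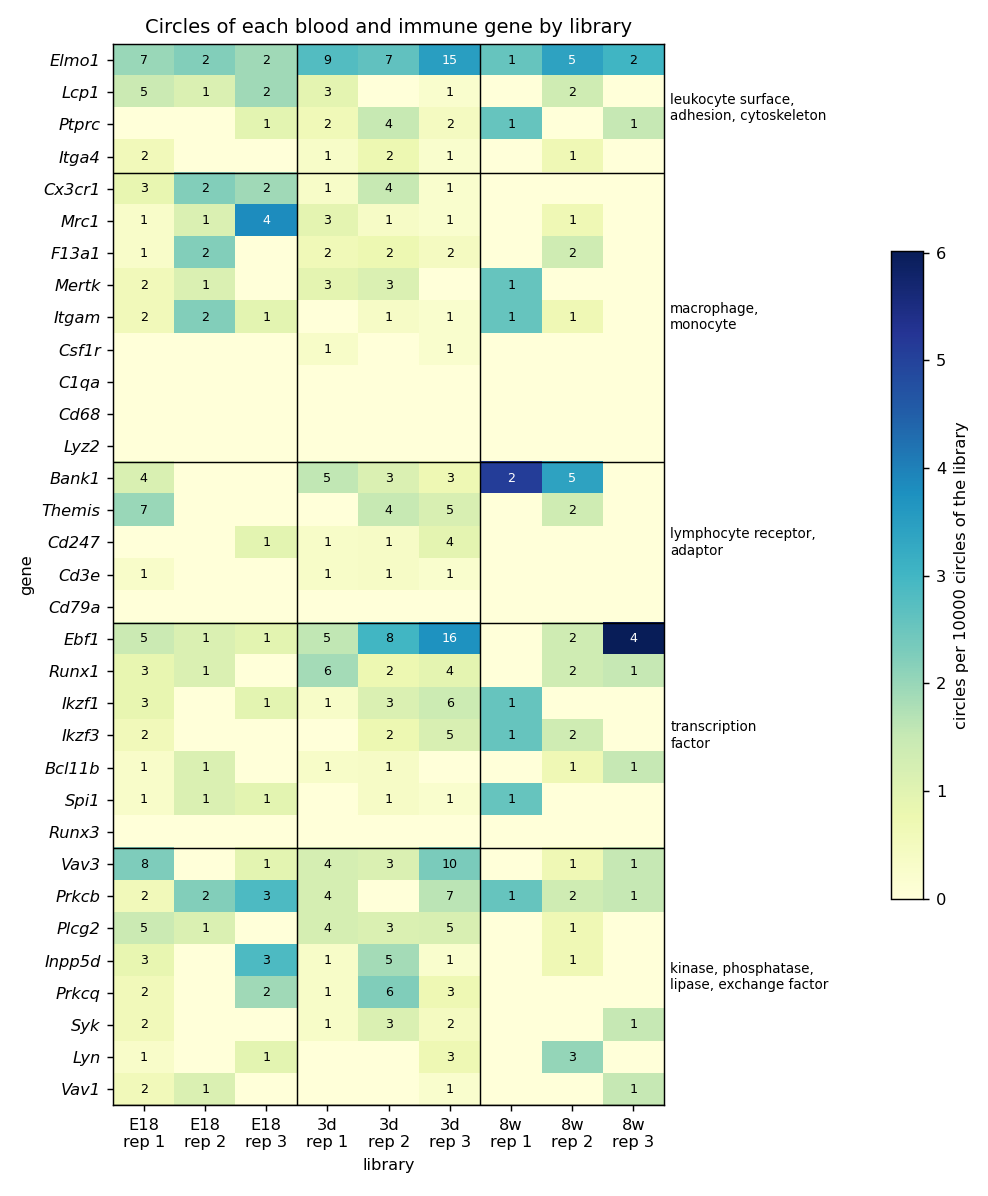
Number of circles of each gene (rows, grouped by role) in each library (columns), with the colour giving circles per 10000 circles of the library. Elmo1 had a circle in all 9 libraries, and Cd68, Lyz2, C1qa, Cd79a and Runx3 had none.

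The 4 genes of the leukocyte surface, adhesion and cytoskeleton held 64 circles. Elmo1, a scaffold that works with Dock proteins to activate Rac during migration and engulfment, had the most of any gene here, with 39 circles and 687 split reads, and it had a circle in each of the 9 libraries. Its frequency was 1.98, 2.21 and 1.91 per 10000 circles at E18, 2.80, 2.63 and 3.49 at 3d, and 2.54, 3.40 and 3.01 at 8w. All 3d and all 8w values lay above all E18 values, although the difference did not pass the test given further on. The value of 8w replicate 1 is 1 circle with 1 split read, and with 2 or more reads required Elmo1 stood at 0, 2.19 and 3.53 at 8w and both separations were gone.

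Lcp1, the leukocyte actin-bundling protein L-plastin, had 5, 1 and 2 circles at E18, 3, 0 and 1 at 3d, and 0, 2 and 0 at 8w. Ptprc, which encodes the CD45 phosphatase on all leukocytes, had 0, 0 and 1 circles at E18, 2, 4 and 2 at 3d, and 1, 0 and 1 at 8w. Lcp1 was most frequent at E18 and Ptprc was nearly missing there. Itga4, the alpha 4 integrin chain, had 6 circles in 5 libraries. Together the 4 genes took 4.02 ± 0.726 per 10000 at E18, 4.65 ± 0.228 at 3d and 5.01 ± 0.464 at 8w (SD, n = 3 each). The value of 8w replicate 1 rests on 1 circle of Ptprc and 1 of Elmo1, each with 1 read. With 2 or more reads required the group stood at 0, 4.38 and 3.53 at 8w, all below the lowest 3d value, 4.55. That 3d value then also lay above the highest E18 value, 3.99, so the rise from 3d to 8w was not kept.

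Of the 9 macrophage and monocyte genes, 6 held 43 circles. Cx3cr1, the fractalkine receptor, had 3, 2 and 2 circles at E18, 1, 4 and 1 at 3d, and none at 8w. The deposited table gives it a span of 167 kb, against 19.6 kb in RefSeq, and only 1 circle of up to 100 kb lies in the RefSeq span. Most of its circles thus came from DNA that RefSeq does not assign to it.

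Mrc1, the mannose receptor, had 1, 1 and 4 circles at E18, 3, 1 and 1 at 3d, and 0, 1 and 0 at 8w. F13a1, the A chain of coagulation factor XIII, had 1, 2 and 0 at E18, 2, 2 and 2 at 3d, and 0, 2 and 0 at 8w. Mertk, a receptor kinase for the clearance of dying cells, had 2, 1 and 0 at E18, 3, 3 and 0 at 3d, and 1, 0 and 0 at 8w. None of these 3 genes had stages whose libraries stood fully apart in frequency. Itgam, the CD11b integrin chain, had 7 circles in 7 libraries.

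Csf1r, the receptor for the macrophage growth factor, had 1 circle, a very large one described further on. C1qa, a chain of the first complement component, Cd68, a lysosomal glycoprotein, and Lyz2, the macrophage lysozyme, had none in any library. These 3 genes are 2.93, 1.96 and 4.73 kb long in RefSeq. The group as a whole took 6.03 ± 3.20 per 10000 circles in E18 hearts, 2.88 ± 1.38 in 3d hearts and 2.60 ± 2.55 in 8w hearts (SD, n = 3 each), with ranges that overlap between all 3 stages.

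The lymphocyte receptors and adaptors held 46 circles in 4 of 5 genes. Bank1, a B cell scaffold protein, had 4, 0 and 0 circles at E18, 5, 3 and 3 at 3d, and 2, 5 and 0 at 8w. Themis, a signalling protein of developing T cells, had 7, 0 and 0 at E18, 0, 4 and 5 at 3d, and 0, 2 and 0 at 8w. All E18 circles of both genes were found in E18 replicate 1, the library with the most split reads.

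Cd247, the zeta chain of the T cell receptor complex, had 6 circles and none at 8w. Cd3e, another chain of that complex, had 3 circles of 327, 355 and 593 bp in a gene of 10.9 kb, also with none at 8w. Cd79a, the B cell receptor partner, had none and is 4.36 kb long. The group took 1.45 ± 1.75 per 10000 circles in E18 hearts, 2.86 ± 0.619 in 3d hearts and 3.28 ± 2.85 in 8w hearts (SD, n = 3 each), and 3 of its 9 library values were 0 or rested on 1 circle.

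Transcription factors held 82 circles in 6 of 7 genes. Ebf1, the factor that sets the B cell fate, had 36 circles, the second highest number after Elmo1. Its frequency was 1.42, 1.11 and 0.95 per 10000 circles at E18, 1.55, 3.00 and 3.72 at 3d, and 0, 1.36 and 6.02 at 8w. All 3d values lay above all E18 values, and the 8w values spread across both. With 2 or more reads required, the lowest 3d value was 1.501 and the highest E18 value 1.51, so the stages overlapped.

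Runx1 had 3, 1 and 0 circles at E18, 6, 2 and 4 at 3d, and 0, 2 and 1 at 8w. Ikzf1, which encodes the lymphoid factor Ikaros, had 3, 0 and 1 at E18, 1, 3 and 6 at 3d, and 1, 0 and 0 at 8w. Ikzf3, which encodes its relative Aiolos, had 2, 0 and 0 at E18, 0, 2 and 5 at 3d, and 1, 2 and 0 at 8w. In all 3 genes the libraries of every stage overlapped in frequency with those of the others. The 8w circle of Ikzf1 had 1 read. With 2 or more reads required Ikzf1 stood at 0 in all 8w libraries, below 0.50, 0.83 and 1.26 at 3d.

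Bcl11b had 6 circles, each in a single library, and Spi1 had 4. Runx3, a factor of cytotoxic T cells, had none although it spans 57.3 kb. The transcription factors together took 3.85 ± 0.857 per 10000 circles in E18 hearts, 5.96 ± 1.74 in 3d hearts and 7.14 ± 2.18 in 8w hearts (SD, n = 3 each). The lowest 8w value, 4.76, lay above the highest E18 value, 4.43, while 3d overlapped both. That 8w value rests on 3 circles with 1 read each in 8w replicate 1, which had 0 with 2 or more reads required, and then 8w and E18 overlapped.

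The 8 enzymes and exchange factors of immune signalling held 101 circles, and none of the 8 was without one. Vav3, an exchange factor of immune receptor signalling, had 8, 0 and 1 circles at E18, 4, 3 and 10 at 3d, and 0, 1 and 1 at 8w. Prkcb, the beta form of protein kinase C used in B cells, had 2, 2 and 3 at E18, 4, 0 and 7 at 3d, and 1, 2 and 1 at 8w. Prkcb had a circle in 8 of the 9 libraries, as did Ebf1.

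Plcg2, the phospholipase of B cell receptor signalling, had 5, 1 and 0 circles at E18, 4, 3 and 5 at 3d, and 0, 1 and 0 at 8w. Inpp5d, the lipid phosphatase SHIP1, had 3, 0 and 3 at E18, 1, 5 and 1 at 3d, and 0, 1 and 0 at 8w. Prkcq, the theta form of protein kinase C used in T cells, had 2, 0 and 2 at E18, 1, 6 and 3 at 3d, and none at 8w. In Plcg2 and Prkcq all 8w frequencies lay below all 3d frequencies.

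Syk had 7 circles, Lyn, a Src family kinase, 7, and Vav1, an exchange factor of blood cells, 5. The group took 7.02 ± 2.56 per 10000 circles in E18 hearts, 6.54 ± 1.63 in 3d hearts and 4.67 ± 1.86 in 8w hearts (SD, n = 3 each), with overlapping ranges.

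No gene of the 33 passed a test between stages. The number of circles per gene and library was tested with edgeR's quasi-likelihood test on the 2174 genes whose circles summed to at least 10 over all libraries, 18 of them of this list, with an adjusted p under 0.05 as the threshold. In each of the 3 comparisons 0 of the 18 genes were called, against 0% of all genes tested, and in DESeq2 likewise 0 of all genes. At an unadjusted p under 0.05 edgeR gave 1 of the 18 in each comparison, against 4.83% of all genes between 3d and E18, 13% between 8w and 3d, and 8.6% between 8w and E18. The other 15 genes were too sparse to be tested.

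With the scaling used, the median fitted log2 change of all genes was 0.28 between 3d and E18, -0.85 between 8w and 3d, and -0.62 between 8w and E18, and with library totals alone these medians were 0.10, -0.26 and -0.19. Changes are therefore given relative to that median. The standard error (SE) is an approximation, the size of the fitted change divided by the square root of edgeR's F statistic. The p-values test the fitted change before the median is taken off. That unshifted change was 1.31 for Ebf1, -1.57 for Lcp1 and 1.97 for Ptprc between 3d and E18. It was -1.64 for Vav3 between 8w and 3d, and 1.38 for Bank1 between 8w and E18. The median relative change of the 18 genes was 0.01 between 3d and E18, 0.04 between 8w and 3d, and -0.33 between 8w and E18, where all genes stand at 0 by construction.

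Between 3d and E18 the gene with the smallest p was Ebf1, with a relative log2 change of 1.04 (SE 0.61, unadjusted p = 0.0316 and adjusted p = 0.983 in edgeR). Lcp1 followed at -1.84 (SE 0.88, edgeR's unadjusted p = 0.0757), with 0.93, 0 and 0.23 per 10000 circles at 3d against 1.42, 1.11 and 1.91 at E18. The third was Ptprc at 1.70 (SE 1.20, edgeR's unadjusted p = 0.101). The adjusted p of Lcp1 and Ptprc was also 0.983. Single libraries weighed heavily on both, as the change of Lcp1 was -2.96 without 3d replicate 1, and that of Ptprc was 0.38 without E18 replicate 1 and 3.798 without E18 replicate 3.

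The libraries of 3d and E18 did not overlap for 3 of the 18 genes. Ebf1 and Elmo1 were higher in all 3d libraries, where 7.77% of all genes tested were, and Lcp1 was lower in all 3d libraries, where 4.69% were. With 2 or more reads required the separation stayed for Lcp1 and was lost for Ebf1 and Elmo1.

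Between 8w and 3d the smallest p belonged to Prkcq, with 0 circles in all 8w libraries against 0.31, 2.25 and 0.70 per 10000 at 3d (unadjusted p = 0.0217 and adjusted p = 0.335 in edgeR). Cx3cr1, counted over its deposited span, with 0 at 8w against 0.31, 1.5 and 0.23 at 3d, had an adjusted p of 0.399 in edgeR. Vav3 had 0, 0.68 and 1.5 at 8w against 1.24, 1.13 and 2.33 at 3d, a relative log2 change of -0.79 (SE 0.98, adjusted p = 0.454 in edgeR). Without 3d replicate 3 the Vav3 change was -0.37, without 8w replicates 1 and 2 in turn it was -0.52 and -0.48, and without 8w replicate 3 it was -1.23. All 8w values lay below all 3d values for Prkcq, Cx3cr1 and Plcg2, 3 of the 18, against 16.7% of all genes tested. None of the 18 lay above, against 2.62% of all genes. With 2 or more reads required the separation stayed for Prkcq, Cx3cr1 and Plcg2, and Ptprc, Ikzf1 and Vav3 then also lay below. The share of all genes with 2 or more reads required was not counted, so nothing is read from the added genes. In 8w replicate 1 only 2 circles of these genes had 2 or more reads, and most of the 18 stood at 0 there.

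Between 8w and E18, Cx3cr1 had 0 circles in all 8w libraries against 0.85, 2.21 and 1.91 per 10000 at E18 (unadjusted p = 0.0190 and adjusted p = 0.535 in edgeR). These counts use the deposited span of Cx3cr1, and only 1 circle of up to 100 kb lies in its RefSeq span. Prkcq, with 0 at 8w against 0.57, 0 and 1.91 at E18, had an adjusted p of 0.639 in edgeR. Bank1 had 5.09, 3.40 and 0 at 8w against 1.13, 0 and 0 at E18, a relative log2 change of 2.00 (SE 0.94, adjusted p = 0.676 in edgeR). The Bank1 change was 5.17 without E18 replicate 1, which held all its E18 circles, and 1.599 without 8w replicate 2. Libraries did not overlap for Elmo1, higher at 8w, against 2.58% of all genes, and for Cx3cr1, lower at 8w, against 6.81%. With 2 or more reads required this held for Cx3cr1 and was lost for Elmo1.

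The fitted changes for genes with 0 circles at 8w depend on the prior count of the fit, so they are not printed. A count of 0 among the 25297 circles of the 8w libraries allows up to 3 circles, or 1.19 per 10000. Prkcq stood at 0.982 over the 3d libraries together and 0.730 over the E18 libraries, both under that floor, so a difference from 8w was not detectable at this depth. Cx3cr1 stood at 1.28 over the E18 libraries, 1.08-fold above that floor, and at 0.589 over the 3d libraries. The E18 level has a counting error of its own, so 1.08-fold is no lower bound on the difference. One of its 7 E18 circles was a very large one, and without it the E18 level was 1.09, under the floor. With library totals alone as the scale, the median log2 change of the 18 genes was -0.20 between 8w and 3d and -0.53 between 8w and E18, against -0.26 and -0.19 for all genes. Prkcq and Cx3cr1 were also set lower at 8w by their fold above the floor, or at 0 where they lay under it. The 2 medians of the 18 genes were then 0 and -0.05. Other genes with 0 circles at 8w were left as fitted, so these 2 values cannot be set against the medians of all genes. The lower median between 8w and E18 thus depends on how these genes are set.

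The number of circles per gene went with the gene's length. Over the 33 genes the log2 of the RefSeq span and of the number of circles plus 1 had a Pearson correlation of 0.90 and a Spearman correlation of 0.91, and over all 21883 protein-coding genes 0.81 for both. These are correlations across genes within the same libraries, and genes are not independent replicates. The median span was 93.7 kb for the 33 genes and 17.2 kb for all protein-coding genes. No circle was found in 6 of the 33 RefSeq spans (18.2%), against 42.3% of all, counting circles of up to 100 kb.

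**Figure D3:**
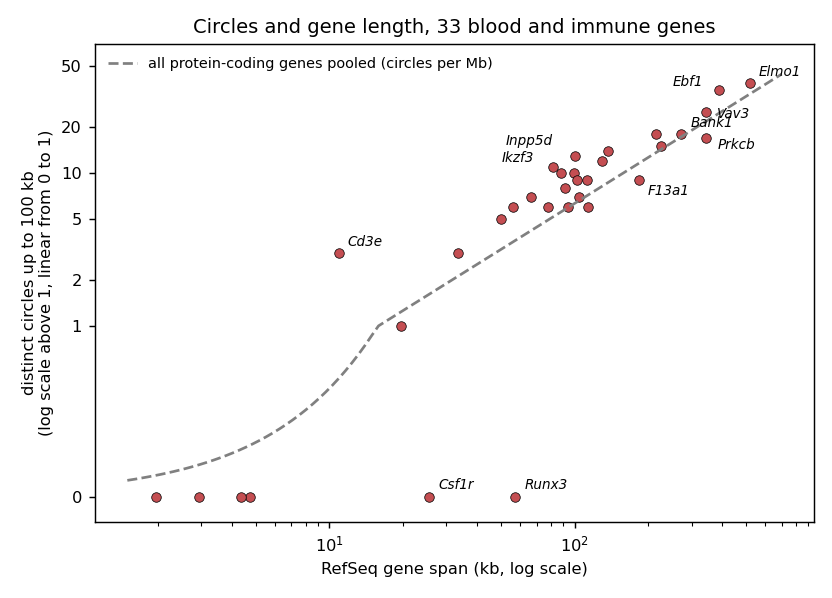
Distinct circles of up to 100 kb in each of the 33 genes (y axis, log scale above 1) against the RefSeq span in kb (x axis, log scale), with the pooled density of all protein-coding genes as a dashed line. Points rise with length from the short genes at 0 to Elmo1 at 39, and Runx3 lies at 0 among genes of similar span that have 5 or more circles.

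Per Mb of gene, the 33 genes pooled had 77.4 circles, against 63.6 for all protein-coding genes. Among genes of 50 kb or longer the pooled values were 77.7 for 25 of these genes and 65.0 for 4944 genes, and the medians were 83.5 and 64.6. The 108 other blood and immune genes lay near all genes, with 67.0 pooled over all lengths. Their 36 genes of 50 kb or longer had 67.7 pooled and a median of 61.5. The highest density among those 25 was that of Ikzf3 with 135.1 per Mb, followed by Inpp5d with 129.7 and Ikzf1 with 113.7. Prkcb with 49.2, F13a1 with 49.2 and Lyn with 52.8 were the lowest above Runx3 at 0. All 3 low genes are longer than the 3 high ones.

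By role the density was 82.6 per Mb in the transcription factors, 79.2 in the surface and cytoskeleton genes, 79.0 in the lymphocyte receptors, 76.9 in the signalling enzymes and 63.9 in the macrophage and monocyte genes. Among the 25 genes of 50 kb or longer, Runx3 was the 1 without a circle (4%), and 87 of all 4944 genes of that length (1.76%) had none.

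Circles of these genes were short, with a median of 382 bp against 369 bp for all circles. Of the 336, 309 (92.0%) were 1 kb or shorter and 139 (41.4%) measured 250 to 450 bp, against 93.2% and 43.7% of all circles. The shortest measured 68 bp. Leaving out 7 very large circles, the longest was a circle of 2939 bp in Lyn at chr4:3781102-3784040, with 5 split reads in 3d replicate 3.

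At 8w 2 of the 3 libraries held much shorter circles of these genes. The median length was 379, 347 and 384.5 bp in the E18 libraries, 382.5, 390 and 419.5 bp in the 3d libraries, and 350.5, 115 and 118 bp in the 8w libraries. E18 and 3d lay close together, and 8w replicates 2 and 3 lay below every other library. The stage means of these medians were 370 ± 20.3 bp in E18 hearts, 397 ± 19.6 bp in 3d hearts and 194.5 ± 135 bp in 8w hearts (SD, n = 3 each), and without 8w replicate 1 the 8w mean was 116.5 bp.

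Circles under 250 bp made up 32 of 34 (94.1%) in 8w replicate 2 and 9 of 13 (69.2%) in 8w replicate 3, with Wilson 95% intervals of 80.9% to 98.4% and 42.4% to 87.3%. In 8w replicate 1 they were 3 of 10 (30%, interval 10.8% to 60.3%). At E18 the shares were 20%, 36.8% and 11.5%, and at 3d 11.7%, 22.9% and 10.8%. The same was seen over all circles, whose median length averaged 368 bp in E18 hearts, 384 bp in 3d hearts and 190 bp in 8w hearts, so the shift was shared with the rest of the genome.

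The long circles of 8w replicate 1 were those with a single read. Its 8 single-read circles had a median of 381 bp, and the 2 with more reads measured 79 and 123 bp. With at least 2 reads required, the mean of the 8w medians was 108 ± 6.66 bp (SD, n = 3). Of the 61 findings of a circle of these genes by a single read in a library, 39 (63.9%) concerned a circle with 5 or more reads in another library. Of the 348 findings by 2 or more reads, 23 (6.61%) did, and over all circles the shares were 66.2% and 7.15%. The part of reads passing between libraries in this was not tested.

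**Figure D4:**
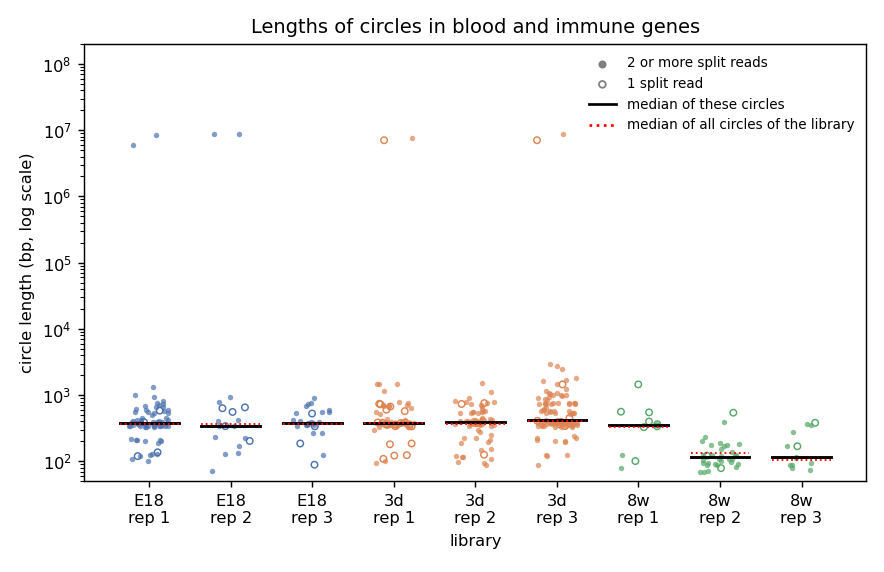
Length in bp (y axis, log scale) of each circle of the 33 genes in each library (x axis), filled for 2 or more split reads and open for 1, with the median of these circles (black line) and of all circles of the library (dotted red line). The medians lie between 347 and 419.5 bp in the E18 and 3d libraries and at 350.5, 115 and 118 bp in the 8w libraries.

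Most circles were found in 1 library. Of the 336, 268 (79.8%) were in a single library, against 80.6% of all circles, while 64 were in 2 libraries, 3 in 3 and 1 in 4. By stage, 86 (25.6%) were found at E18 alone, 172 (51.2%) at 3d alone and 36 (10.7%) at 8w alone, against 26.6%, 49.8% and 11.02% of all circles. Another 23 were shared by E18 and 3d, 11 by 3d and 8w, 7 by E18 and 8w, and 1 by all 3 stages. Of the 68 circles in 2 or more libraries, 37 were in 3d replicate 1, and 20 of those had a single read there. Only 22 of the 68 had 2 or more reads in at least 2 libraries, and without 3d replicate 1 the 68 came to 34.

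The circle in the most libraries lay in Elmo1 at chr13:20389840-20389961, 122 bp long, with 35 split reads in E18 replicate 1, 7 in 3d replicate 2 and 1 each in 3d replicate 1 and 8w replicate 2. It is the circle found at all 3 stages. The 3 circles in 3 libraries lay in Lcp1 at chr14:75227628-75227813 (186 bp), in Spi1 at chr2:91093430-91093767 (338 bp) and in Ikzf1 at chr11:11750197-11751647 (1451 bp). The Lcp1 circle had 13 reads in E18 replicate 1 and 1 each in E18 replicate 3 and 3d replicate 1. The Spi1 circle had 4 reads in E18 replicate 1 and 1 each in E18 replicate 3 and 8w replicate 1. The Ikzf1 circle had 3 reads in 3d replicate 1 and 1 each in 3d replicate 3 and 8w replicate 1.

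These 4 circles were the ones of the list tested on split reads, among 2893 circles present in at least 3 libraries. None of the 4 was called in any comparison, against 0% of all circles tested, with adjusted p from 0.340 to 0.808 in edgeR. The smallest unadjusted p was 0.0587, for the Spi1 circle between 3d and E18 in edgeR, so 0 of the 4 had an unadjusted p under 0.05. Of all circles tested 4.36% did between 3d and E18, 0.726% between 8w and 3d and 0.242% between 8w and E18.

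Read numbers of single circles were uneven, with a median of 10 reads over all libraries for these circles and for all circles alike. The most reads in 1 library, 207, belonged to a 328-bp circle in Prkcb at chr7:122622582-122622909 in E18 replicate 1. Next came a 634-bp circle in F13a1 at chr13:36993949-36994582, with 168 reads in 3d replicate 1 and 1 in E18 replicate 2. A second Prkcb circle, at chr7:122446276-122446665, had 151 reads in E18 replicate 3. An Lcp1 circle at chr14:75217812-75218150 had 131 reads and an Elmo1 circle at chr13:20481083-20481457 had 123, both in E18 replicate 1. Since circles were amplified with phi29 polymerase, reads of 1 circle do not count its copies in the tissue.

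Circles of a gene seldom lay on top of each other. Of 302 pairs of neighbouring circles within a gene 10 overlapped, and the median gap was 8801 bp. In Themis, circles of 1020 and 1018 bp at chr10:28721633-28722652 and chr10:28721634-28722651 differed by 1 bp at each end and had 33 reads each in 3d replicate 3. Whether such a pair is 1 molecule with ends placed in 2 ways was not tested.

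The list held 7 very large circles, each of which spans a whole gene of the list with many others. They measured 6.00 Mb around Ebf1 (13 split reads), 7.05 Mb around Csf1r (2), 7.54 Mb around Bank1 (54), 8.50 Mb around Itgam (43), 8.65 Mb around Plcg2 (10), 8.68 Mb around Spi1 (10) and 8.72 Mb around Cx3cr1 (2). Each held between 51 and 275 genes of the deposited table. The circle around Csf1r had 1 read each in 3d replicates 1 and 3, and the other 6 were each in a single library. Of the pairs of a circle and a gene, 2.08% in these genes and 5.80% over all genes came from circles over 100 kb. Apart from these 7, no circle held a whole gene of the list.

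Along the genes, circles were spread from end to end. In genes of 50 kb or longer 318 circles of up to 100 kb were placed by their middle. The first 10% of the gene held 43 (13.5%), against 9.95% over all genes, and the stretch from 50% to 60% held 21 (6.604%), against 10.05%. In the first 10% lay the Syk circle printed above and a 920-bp circle in Lyn at chr4:3678493-3679412, with 121 reads in 3d replicate 3. No test of the spread was made.

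**Figure D5:**
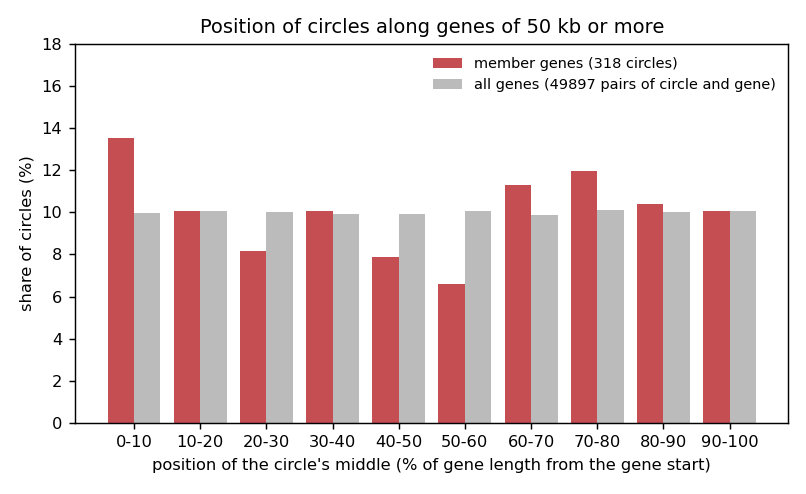
Share of circles (y axis, %) by the position of the circle's middle along the gene (x axis, in steps of 10% of gene length from its start), for the listed genes of 50 kb or longer (red, 318 circles) and for all genes of that length (grey, 49897 pairs of circle and gene). The grey bars stay near 10%, and the red bars run from 6.604% to 13.5%.

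A wider list of 108 other blood and immune genes held 550 circles in 81 genes: 240 in 27 transcription factors, 233 in 39 signalling genes and 77 in 42 genes for receptors, adhesion and secreted proteins. The most were in Rora, a nuclear receptor of innate lymphoid cells, with 62, Arhgap15, a Rac regulator, with 41, and Etv6, a factor of blood stem cells, with 31. The wider list took a lower share in every 8w library than in any E18 or 3d library. It stood at 38.0, 43.1 and 38.1 per 10000 circles at E18, 34.2, 38.3 and 38.6 at 3d, and 15.3, 31.2 and 27.1 at 8w. The stage means were 39.8 ± 2.93 at E18, 37.0 ± 2.48 at 3d and 24.5 ± 8.29 at 8w (SD, n = 3 each), with no test of the list.

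Of the 19 genes of the wider list with enough circles to be tested, 0 passed edgeR's test in any comparison. The median relative log2 change was 0.01 between 3d and E18, -0.53 between 8w and 3d, and -0.50 between 8w and E18. All 8w values lay below all 3d values for 7 of the 19, against 16.7% of all genes tested, and above them for Dock10, against 2.62%. Of these 7, Vav2, Pik3cd and Il1r1 had 0 circles at 8w and means of 1.05, 0.867 and 0.742 per 10000 at 3d. These means lie under the 8w floor of 1.19, so a difference was not detectable at this depth. Bach2 and Pax5, also at 0 at 8w, had 3d means of 2.30 and 1.37. The overlap with 2 or more reads required was not checked for this list. Dock10, an exchange factor of lymphocytes, had 1, 2 and 1 circles at 8w against 2, 1 and 3 at 3d. Bach2, a repressor that guides B and T cell fate, had 0 circles in all 8w libraries against 4, 7 and 13 at 3d and 6, 1 and 0 at E18. Pax5, the factor that holds B cell identity, had 0 at 8w against 3, 6 and 4 at 3d.

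In edgeR the adjusted p of Bach2 was 0.335 between 8w and 3d, 0.535 between 8w and E18 and 0.983 between 3d and E18, and that of Pax5 was 0.335 between 8w and 3d. Fyn, a Src family kinase, had 7, 0 and 5 circles at 3d against 0, 1 and 0 at E18 (adjusted p = 0.983 in edgeR). Pik3cd, the leukocyte form of the phosphoinositide 3-kinase subunit, had 0 in all 8w libraries against 4, 1 and 0 at E18 (adjusted p = 0.575 in edgeR). The E18 means of Pik3cd and Bach2, 0.747 and 0.936 per 10000, lie under the 8w floor of 1.19. The wider list was drawn up with earlier results of these data known, as the 33 genes were.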

How the data were processed

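Per the file headers, the deposited values are counts of split reads for every circle in every library, with circles identified by Circle-Map, its version being not given in the sources used here. As builds, the submitters' processing notes name GRCm38 and mm10, and as tools bedtools 2.27.1, SAMtools 1.9, BWA 0.7.12, cutadapt 1.9.1 and edgeR with the version 0.6.9. The authors' log2 values beside the counts were not used. The deposited length and overlap columns are in bp, and the length equals end minus start on all 154938 lines. Starts are printed counting from 1.

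The members and the wider list were chosen with earlier results of these data known. Genes with at least 10 circles over 9 libraries and circles in at least 3 libraries were tested with edgeR 4.0.16 (quasi-likelihood, TMM, all libraries in 1 fit with stage as the term, Benjamini-Hochberg over all features), after tests on simulated data. DESeq2 1.42.0 was an alternative. Every gene with at least 10 circles is named with its values and others with totals, and changes are given for the 3 smallest p per comparison. Circles named are the 4 in 3 or more libraries, the 5 with the most reads in 1 library, the longest, and those that hold a whole gene or reach a start. The Lyn circle near a start, the Themis pair, the Runx1 promoter circle and Dock10 were added after their values were seen. Gene spans, starts and promoters are those of RefSeq on GRCm38.p6, while circles per gene and positions along genes use the deposited table's spans. P-values measure the spread between libraries, which the labels call biological replicates. Software also included matplotlib 3.10.9, SciPy 1.17.1, pandas 2.3.3, NumPy 2.4.6, Python 3.11.15 and R 4.3.3.

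Same-numbered libraries of different stages deviated together no more than others. Correlations of their deviations were -0.038 to 0.0075 over 9 pairs, so replicate numbers were not taken as pairing.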

Additional observations from a re-analysis of the deposited data

How the results depend on the processing

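Genes called stayed at 0 in each comparison under 17 alternatives (library totals alone, DESeq2, other minimum numbers of circles, 2 or more reads, split reads per gene, without circles over 100 kb, the replicate block, and each library left out), while the number at an unadjusted p under 0.05 ran from 15 to 346 between 3d and E18, 68 to 466 between 8w and 3d, and 55 to 264 between 8w and E18. The replicate block also left circles called at 0. DESeq2 called 2 circles between 3d and E18, 3 between 8w and 3d, and 2 between 8w and E18, none of them in the listed genes, and the cause was not tested. No gene or circle of the list was called in any setting. Each named log2 change kept its sign in the 138 refits where its gene passed the filter. Ptprc had only 12 of these refits, as it fell under the filter whenever a 3d library was left out. The changes of Prkcq and Cx3cr1 at 8w rest on counts of 0. Requiring 5 or more reads gave 19.5 listed circles per 10000 and a median length of 333 bp at E18. The 3d length was 418.5 bp with 2 or more reads and 443 bp with 5 or more. At 8w, 2 or more reads gave 18.3 per 10000, and split reads gave 18.7. Leaving out 1 library each, circles per 10000 ran from 21.1 to 23.03 at E18, 21.2 to 25.005 at 3d and 21.3 to 24.3 at 8w, and median lengths from 363 to 381.75 bp at E18, 386.25 to 404.75 bp at 3d and 116.5 to 234.25 bp at 8w, the lowest without 8w replicate 1. Depth limits the 8w values, where 3 circles correspond to 1.19 per 10000. The setting without circles over 100 kb, the overlap of stages with 2 or more reads and the medians with genes set by the floor were chosen after seeing the data.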
